A study of Bos taurus with 138 samples.

Results

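Ribosome-loaded mRNA was compared between 2-cell and 8-cell bovine embryos, the interval in which the embryonic genome of cattle is activated. The comparison used 12 of the 138 libraries of the series, namely fractions F8, F9 and F10 of sucrose gradients A and B at each of the 2 stages. These are the densest fractions, in which mRNA carries several ribosomes, and they are called polysomes here. Adding up these 3 libraries of a gradient left 2 polysome pools per stage. The 2 8-cell pools were compared with the 2 2-cell pools for each gene after scaling to library size. The embryos were *Bos taurus*, made by maturing oocytes from slaughterhouse ovaries in vitro, fertilizing them with frozen semen of a single Holstein bull and culturing them to the stage named, and no other treatment separated the stages. Each gradient was loaded with a lysate of many pooled embryos made with cycloheximide, which holds elongating ribosomes on mRNA. The same stages had 3 whole-embryo transcriptomes each (A, B and C), from smaller pools of embryos taken from the same batches. The study's text says that the experiment was done 2 times and calls gradients A and B biological replicates. No source used here says that they came from separate cultures. If they did not, the p-values measure only the spread between these libraries.

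Before genome activation a bovine embryo lives on mRNA and protein stored in the oocyte. Maternal mRNAs are adenylated, translated and degraded on a schedule, and new transcripts from the embryonic genome then take their place. An mRNA in a polysome is usually being translated, so the polysome fractions show which of the old and new messages the ribosomes hold. In a gradient, free ribosomal subunits lie near the top, single ribosomes (monosomes) below them and polysomes at the bottom.

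The polysome pools held between 22540500 and 34653312 counts, and the transcriptomes between 9523306 and 11811574. Levels are given as TMM-scaled CPM, which are counts relative to the library total. The amount of polysomal RNA per embryo was therefore not measured, and fewer cells holding an mRNA cannot be told apart from less of it per cell. Over 14612 genes tested of 16706 in the table, Pearson's r of log2(CPM + 1) was 0.960 between the 2-cell pools and 0.822 between the 8-cell pools, and it lay between 0.653 and 0.679 across stages. The 8-cell pool A had 4155 of the tested genes at 0 counts, against 2219 in 8-cell pool B and 1718 and 1603 in the 2-cell pools. A count of 0 allows up to 3 counts, which is 0.0813 to 0.123 CPM in these pools, and intervals and limits of this kind cover counting error only. The 8-cell transcriptome A stood apart from B and C in the summed level of 24 fibroblast markers, with 17737 CPM against 3420.0 and 3101 CPM. It was also higher in the sums of 22 granulosa and cumulus cell markers (2762 against 629 and 646 CPM) and of 37 interferon-stimulated genes (6091 against 3243.5 and 3199 CPM).

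As a check of the stage labels, genes that define an oocyte and an active embryonic genome were read in the same pools that are compared below. These pool values are therefore not separate from the later results on the same genes. All 7 oocyte genes used for this check (*GDF9*, *BMP15*, *ZP2*, *ZP3*, *ZP4*, *ZAR1* and *NLRP5*) were detected in every pool, and their summed level was 15139 and 15475 CPM in the 2-cell pools and 2083 and 1351 CPM in the 8-cell pools. In transcriptomes A, B and C, which are separate libraries, the sum was 10843, 9962 and 9254 CPM at the 2-cell stage. At the 8-cell stage it was 303, 386 and 621 CPM. *NANOG*, a core pluripotency factor, had 0 counts in both 2-cell pools and 161 and 119.5 CPM in 8-cell pools A and B. The study's text names this gene at the 8-cell stage from these same libraries.

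Polysomal mRNA differed widely between the stages. A gene was called higher or lower at an adjusted p under 0.05 and a fold change above 2, by edgeR's quasi-likelihood F test in 1 model of 30 libraries (12 polysome pools and 18 transcriptomes of 6 stages), with Benjamini-Hochberg adjustment over the 14612 genes. All adjusted p-values of the polysome comparison come from this fit. Of the 14612 genes, 3074 (21.0%) were higher and 3685 (25.2%) were lower in 8-cell polysomes, and the median log2 fold change over all genes was -0.26. Among the called genes, 453 of the higher and 945 of the lower had 0 counts in both pools of 1 stage. Their fitted change is no measured fold, and some rest on few counts. In at least 1 lower call, 6 counts at the 2-cell stage stood against 0, a fold of at least 1.79 when 3 counts are allowed. With RLE size factors in place of TMM the median of all genes moved by -0.16. The pools of the stages did not overlap, in the same directions, for 3470 genes (23.7%) and 5610 genes (38.4%).

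The number of calls depended on how the spread was estimated. Fitted on the 12 polysome pools alone, without transcriptomes, the test called 1358 genes higher (9.47%) and 996 lower (6.95%) of 14339. Fitted on the 4 pools alone, it called 1091 higher (8.60%) and 586 lower (4.62%) of 12691. A limma-voom fit with a spread of its own for each group called 1707 higher (11.7%) and 1168 lower (7.99%). In the counts per gene group below, the numbers in parentheses after a count are the lowest and highest counts over 18 other fits, which include the 3 just given. Each count is to be read beside the share of all genes called in the same fit. In the first model that share was 21.0% higher and 25.2% lower. The first model, the 12-pool fit and the limma-voom fit shared 1245 genes called higher and 656 called lower, and no gene was called in opposite directions by the first model and the 12-pool fit. The call of a gene named below held in all 18 unless an adjusted p that missed the threshold, or another fit, is added.

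**Figure D1:**
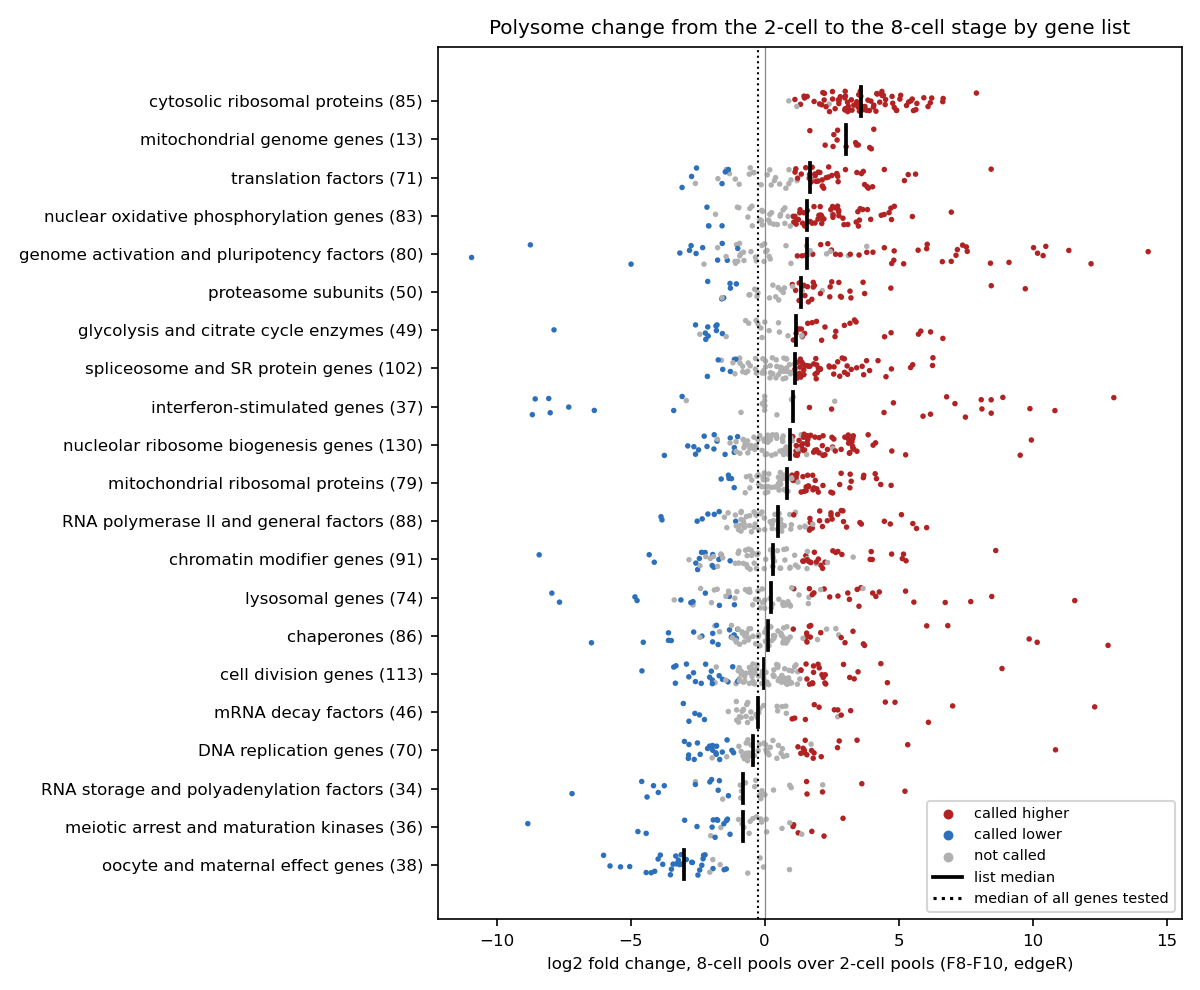
Change in 8-cell against 2-cell polysomes by gene group. Each point is a gene, the horizontal axis is the fitted log2 fold change (8-cell minus 2-cell) in the pools, and each tick marks the group's median; the median was 3.59 for cytosolic ribosomal proteins, -3.01 for oocyte and maternal effect genes and -0.26 for all genes tested.

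The most abundant messages of the polysomes changed with the stage. The 100 genes with the highest level at each stage had 17 genes in common. The 100 of the 2-cell pools made up 22.7% and 23.5% of counts in those pools and 10.5% and 8.85% in the 8-cell pools, and the 100 of the 8-cell pools made up 9.71% and 9.65% of 2-cell counts and 21.0% and 20.3% of 8-cell counts. *NLRP8*, an NLR family gene of oocytes, was among the 5 most abundant at both stages, with 10722 and 12649.7 CPM at the 2-cell stage and 13457 and 9183 CPM at the 8-cell stage. Its pools overlapped between the stages. *PRDX2*, a peroxide-reducing peroxiredoxin, had 7139.9 and 6571 CPM at the 2-cell stage and 1564 and 1447 CPM at the 8-cell stage (log2 fold change -2.19 ± 0.34 (SE), adjusted p = 2.04e-05). The alpha-tubulin gene *TUBA1C* had 5533 and 4796 CPM at the 2-cell stage and 2203 and 2333 CPM at the 8-cell stage (log2 fold change -1.19 ± 0.26 (SE), adjusted p = 0.000663; 0.0647 with the spread per group, and in the fit of the 4 pools alone its change did not exceed 2-fold). Both genes were higher in each 2-cell pool than in each 8-cell pool.

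A further 3 genes led the 8-cell polysomes. *UBB*, which encodes polyubiquitin, had 1862 and 1924 CPM at the 2-cell stage and 10074 and 11293 CPM at the 8-cell stage (log2 fold change 2.50 ± 0.28 (SE), adjusted p = 2.34e-07). *TMEM37*, which encodes a membrane protein related to calcium channel gamma subunits, had 298 and 210.1 CPM at the 2-cell stage and 5118 and 6044 CPM at the 8-cell stage (log2 fold change 4.46 ± 0.36 (SE), adjusted p = 3.31e-09). *ACTB*, the beta-actin gene, had 978 and 788 CPM at the 2-cell stage and 4275 and 4477 CPM at the 8-cell stage (log2 fold change 2.31 ± 0.36 (SE), adjusted p = 2.14e-05). The pools of the stages did not overlap for any of the 3. *TUBA1C*, *UBB* and *ACTB* share sequence with close relatives, among which the counting tool splits reads, so their levels are uncertain.

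Many genes were present in the polysomes of only 1 stage at this depth. At least 10 CPM in both 8-cell pools and under 1 CPM in both 2-cell pools was found for 213 genes, and 203 of these were also called higher in the transcriptomes. The reverse pattern held for 204 genes, of which 139 were called lower in the transcriptomes and 32 had a mean of at least 10 CPM in the 8-cell transcriptomes. Where a stage had 0 counts in both pools, the fold is given as a lower bound from 3 counts over both pools.

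Among the called genes with the largest increases were several with no count at the 2-cell stage. *ETNPPL*, a phospholyase of lipid breakdown, had 82.1 and 55.2 CPM in the 8-cell pools, at least 1504-fold higher. *MAGED1*, a MAGE family gene, had 85.3 and 45.03 CPM (at least 1394-fold higher). The calcium-binding protein gene *SCGN* had 76.7 and 32.2 CPM (at least 1138-fold higher). *RENBP*, which encodes N-acetylglucosamine epimerase, had 0 and 0.185 CPM at the 2-cell stage and 394 and 753 CPM at the 8-cell stage (log2 fold change 12.55 ± 1.22 (SE), adjusted p = 8.50e-08). A gamma-globin gene, *HBG*, had 0 and 0.0615 CPM at the 2-cell stage and 655 and 903 CPM at the 8-cell stage, a ratio of 27525 (95% counting interval 7619.6 to 227281). Reads of globin genes can be split between near copies, so the level of *HBG* is uncertain. *CMTM5* had 0 counts in the 2-cell pools and 76.4 and 40.7 CPM in the 8-cell pools (at least 1254-fold higher; adjusted p = 0.000863 in the model of 30 libraries and 0.0618 in the 12 pools alone). The genes of this paragraph and the next were chosen from those whose pools did not overlap between the stages.

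The largest decreases ran to near 0 in the 8-cell pools. *TDRD5*, a Tudor domain gene of the piRNA pathway, had 97.6 and 79.2 CPM at the 2-cell stage and 0 and 0.271 CPM at the 8-cell stage (log2 fold change -9.12 ± 0.71 (SE), adjusted p = 2.39e-09). *KLHL32*, a Kelch-like gene, had 76.3 and 77.99 CPM at the 2-cell stage and 0.08203 and 0.217 CPM at the 8-cell stage (-8.88 ± 1.33 (SE), adjusted p = 1.05e-05). *DTX1*, a Deltex ubiquitin ligase of Notch signalling, had 67.1 and 62.9 CPM at the 2-cell stage and 0 and 0.163 CPM at the 8-cell stage (-9.39 ± 1.27 (SE), adjusted p = 5.44e-06). For these 3 genes the 8-cell pools held at most 0.271 CPM and the 2-cell pools at least 62.9 CPM. *FECH*, the ferrochelatase that completes heme, had 86.6 and 52.7 CPM at the 2-cell stage and 0.04101 and 0.488 CPM at the 8-cell stage (-7.93 ± 0.90 (SE), adjusted p = 2.80e-07). *PXMP4*, a peroxisomal membrane protein gene, had 70.6 and 125 CPM at the 2-cell stage and 0.123 and 1.14 CPM at the 8-cell stage (-7.21 ± 0.88 (SE), adjusted p = 7.06e-07). *KHK*, ketohexokinase, had 51.6 and 58.8 CPM at the 2-cell stage and 0 and 0.624 CPM at the 8-cell stage (-7.37 ± 1.40 (SE), adjusted p = 0.000178, and 0.0770 in the 4 pools alone).

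Most of the listed oocyte and maternal effect genes were lower in 8-cell polysomes. Of 38 oocyte and maternal effect genes, 0 were higher (0 to 1) and 31 lower (16 to 32), with a median log2 fold change of -3.01. Their summed level was 51851 and 57410.3 CPM in the 2-cell pools and 21121 and 15191 CPM in the 8-cell pools. *NLRP8*, whose pools overlapped, made up 13457 and 9183 CPM of the 8-cell sums, and the other 37 genes summed to 41129 and 44761 CPM in the 2-cell pools and 7663 and 6008 CPM in the 8-cell pools. All 7 defining genes were lower, and 3 to 7 of them were called lower in the other fits. *ZP3*, a glycoprotein of the zona pellucida, had 3732 and 3182 CPM at the 2-cell stage and 471 and 133 CPM at the 8-cell stage (log2 fold change -3.52 ± 0.49 (SE), adjusted p = 4.46e-06). *ZP4*, another zona protein gene, had 3042 and 3026 CPM at the 2-cell stage and 282 and 153 CPM at the 8-cell stage (-3.80 ± 0.94 (SE), adjusted p = 0.00219, and 0.0715 in the 12 pools alone). The RNA-binding maternal effect gene *ZAR1* had 821 and 889 CPM at the 2-cell stage and 60.3 and 48.4 CPM at the 8-cell stage (-3.98 ± 0.82 (SE), adjusted p = 0.000443). All of these were lower in each 8-cell pool than in each 2-cell pool.

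*NLRP5*, a member of the subcortical maternal complex, had 2033 and 2259 CPM at the 2-cell stage and 99.4 and 129 CPM at the 8-cell stage (log2 fold change -4.23 ± 1.08 (SE), adjusted p = 0.00282, and 0.108 in the 12 pools alone). *NLRP14*, another maternal NLR gene, had the largest decrease among called members, from 362 and 355 to 4.84 and 8.24 CPM (-5.77 ± 0.87 (SE), adjusted p = 1.19e-05). *BMP15* and *GDF9* encode growth factors that the oocyte secretes. *BMP15* had 3893 and 4539.8 CPM at the 2-cell stage and 989 and 746 CPM at the 8-cell stage (-2.28 ± 0.89 (SE), adjusted p = 0.0387). Its adjusted p was 0.140 in the 12 pools alone and 0.0915 with the spread per group. It was 0.0508 with the letter as a replicate block, 0.0828 in F9 and F10 only and 0.0634 in F6 to F10. The *BMP15* call was also lost when any 1 of the 4 pools was left out, with log2 fold changes of -2.50 to -2.09. *GDF9* had 993 and 1069.7 CPM at the 2-cell stage and 127 and 82.6 CPM at the 8-cell stage (-3.30 ± 1.12 (SE), adjusted p = 0.0187, but 0.188 in the 12 pools alone, 0.0518 without 8-cell pool A and 0.0846 without 8-cell pool B). For both genes the pools of the stages did not overlap.

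**Figure D2:**
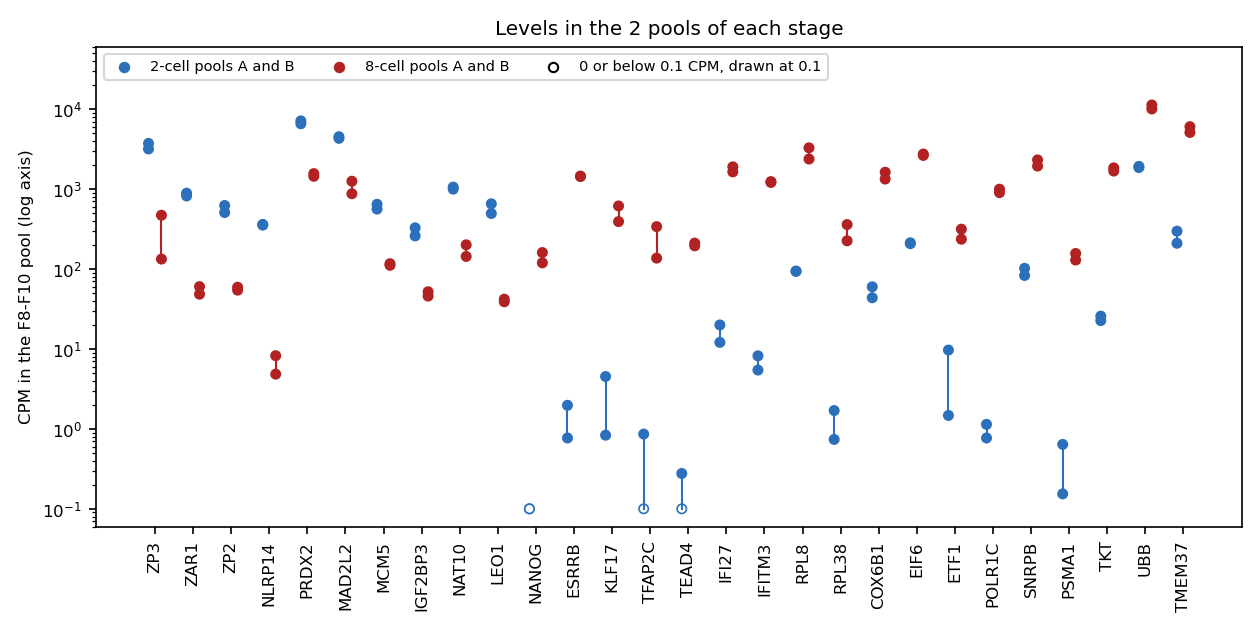
Polysome levels of selected genes in the 4 pools. Each point is 1 gradient (A or B) and the vertical axis is CPM on a log scale, with open circles for pools at 0; maternal genes lie lower and *NANOG*, ribosomal and metabolic genes lie higher in both 8-cell pools than in both 2-cell pools.

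Genes that store, adenylate or remove mRNA moved in both directions. Of 34 RNA storage and polyadenylation factors, 5 were higher (2 to 6) and 12 lower (2 to 15), with a median log2 fold change of -0.79. *IGF2BP3*, an mRNA-binding protein gene of oocytes, fell from 328 and 259.8 to 45.9 and 51.97 CPM (log2 fold change -2.59 ± 0.32 (SE), adjusted p = 9.40e-07), while its paralogue *IGF2BP1* had 10.4 and 0.154 CPM at the 2-cell stage and 166 and 232 CPM at the 8-cell stage (5.23 ± 1.04 (SE), adjusted p = 0.000293, and 0.119 in the 4 pools alone). *TENT2*, a cytoplasmic poly(A) polymerase, had 51.6 and 25.7 CPM at the 2-cell stage and 140.1 and 204 CPM at the 8-cell stage (2.16 ± 0.34 (SE), adjusted p = 1.81e-05). The germ cell RNA-binding gene *DAZL* had 55.4 and 50.2 CPM at the 2-cell stage and 0 and 4.31 CPM at the 8-cell stage (-4.59 ± 1.40 (SE), adjusted p = 0.0101, and 0.259 in the 4 pools alone, 0.226 in the 12 pools and 0.0648 with the spread per group). Of 46 mRNA decay factors, 14 were higher (6 to 14) and 5 lower (0 to 11, the highest being 11 without 8-cell pool B), with a median of -0.25. *PNRC1*, a cofactor of decapping, had 4.73 and 8.46 CPM at the 2-cell stage and 776 and 925 CPM at the 8-cell stage (7.01 ± 0.57 (SE), adjusted p = 3.19e-09). *BTG3*, of the family that binds the CCR4-NOT deadenylase, had 0 counts at the 2-cell stage and 40.8 and 29.5 CPM at the 8-cell stage (at least 776-fold higher). *BTG4*, the maternal member of that family, had 1529 and 2274 CPM at the 2-cell stage and 444 and 182 CPM at the 8-cell stage (-2.60 ± 1.04 (SE), adjusted p = 0.0426). Its adjusted p was 0.356 with the spread per group, 0.0740 in F9 and F10 only, 0.0536 in F6 to F10 and 0.0532 in the 4 pools alone. The *BTG4* call was also lost when any 1 pool was left out, with log2 fold changes of -3.38 to -2.10.

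Kinases of meiotic maturation were called in both directions. Of 36 such genes, 6 were higher (3 to 7) and 14 lower (2 to 17), with a median log2 fold change of -0.81. With the spread estimated per group, 3 were higher and 2 lower, so the order of these counts depended on the fit. *MOS*, the kinase that holds eggs in metaphase II, had 6000.2 and 6864 CPM at the 2-cell stage and 2092 and 1478 CPM at the 8-cell stage (-1.85 ± 0.68 (SE), adjusted p = 0.0283). The pools did not overlap, but the adjusted p was 0.112 in F6 to F10. The *MOS* call was also lost when any 1 pool was left out, with log2 fold changes of -2.12 to -1.62. *AURKA*, a mitotic spindle kinase, had 2751 and 2849 CPM at the 2-cell stage and 1108 and 840.3 CPM at the 8-cell stage (-1.52 ± 0.43 (SE), adjusted p = 0.00588, and 0.0914 with the spread per group). *SPDYC*, of the Speedy family that activates cyclin-dependent kinases, had 154 and 131 CPM at the 2-cell stage and 1402 and 759 CPM at the 8-cell stage (2.92 ± 0.48 (SE), adjusted p = 3.39e-05). *ARPP19*, an inhibitor of phosphatase PP2A, had 14.7 and 19.7 CPM at the 2-cell stage and 98.1 and 61.2 CPM at the 8-cell stage (2.21 ± 0.37 (SE), adjusted p = 4.97e-05). Both were higher in each 8-cell pool than in each 2-cell pool.

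The genes of cell division and DNA replication had medians near that of all genes. Called higher and lower were 21.2% and 16.8% of cell division and 24.3% and 27.1% of DNA replication genes. Over all genes these shares were 21.0% and 25.2%. Of 113 cell division genes, 24 were higher (9 to 26) and 19 lower (4 to 36, the highest being 36 without 8-cell pool B), with a median log2 fold change of -0.01. *MAD2L2*, which binds both a DNA polymerase and the anaphase-promoting complex, had 4319 and 4524 CPM at the 2-cell stage and 1255 and 876 CPM at the 8-cell stage (-2.05 ± 0.28 (SE), adjusted p = 3.57e-06). *UBE2C*, the ubiquitin-conjugating enzyme of that complex, had 707 and 851 CPM at the 2-cell stage and 3219 and 2295 CPM at the 8-cell stage (1.82 ± 0.31 (SE), adjusted p = 5.64e-05). Cyclin E1 (*CCNE1*) had 3.47 and 6.37 CPM at the 2-cell stage and 116 and 119 CPM at the 8-cell stage (4.58 ± 0.43 (SE), adjusted p = 2.02e-08). Of 70 DNA replication genes, 17 were higher (4 to 17) and 19 lower (4 to 24), with a median of -0.42. Without 2-cell pool A 11 were lower. *MCM5*, a subunit of the replicative helicase, had 646 and 563 CPM at the 2-cell stage and 117 and 111 CPM at the 8-cell stage (-2.41 ± 0.50 (SE), adjusted p = 0.000486). *DBF4*, the activator of the CDC7 kinase, had 0.8895 and 1.54 CPM at the 2-cell stage and 60.7 and 37.7 CPM at the 8-cell stage (5.34 ± 0.49 (SE), adjusted p = 1.70e-08). *POLD4*, a small subunit of DNA polymerase delta, had 0 counts at the 2-cell stage and 10.2 and 15.3 CPM at the 8-cell stage (at least 303-fold higher, with an adjusted p of 0.0505 in the 4 pools alone).

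Factors tied to genome activation and pluripotency were more often higher than lower. Of 80 such genes, 37 were higher (21 to 39) and 12 lower (2 to 15), with a median log2 fold change of 1.59. *NANOG* (values above) was at least 3103-fold higher. *ESRRB*, an orphan nuclear receptor of pluripotent cells, had 1.97 and 0.769 CPM at the 2-cell stage and 1456 and 1436 CPM at the 8-cell stage (10.03 ± 1.17 (SE), adjusted p = 3.74e-07). *KLF17*, a Kruppel-like factor, had 0.834 and 4.52 CPM at the 2-cell stage and 392.5 and 616 CPM at the 8-cell stage (7.56 ± 1.03 (SE), adjusted p = 3.31e-06). The proto-oncogene *MYC* had 0 counts at the 2-cell stage and 23.5 and 40.5 CPM at the 8-cell stage (at least 770.1-fold higher). *NODAL*, a TGF-beta family ligand, went the other way, with 12.5 and 14.5 CPM at the 2-cell stage and 0 counts at the 8-cell stage (at least 275-fold lower, with an adjusted p of 0.0530 in the 4 pools alone). *ID3*, an inhibitor of basic helix-loop-helix factors and 1 of the 5 most abundant genes of the 2-cell pools, had 6333 and 6108 CPM at the 2-cell stage and 4729 and 1796 CPM at the 8-cell stage.

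The cytosolic ribosomal protein genes moved together. Of 85, 81 were higher (75 to 82) and 0 lower (0), with a median log2 fold change of 3.59. Their summed level was 7149 and 6482 CPM in the 2-cell pools and 56490.2 and 60836 CPM in the 8-cell pools. *RPL8*, of the large subunit, had 94.3 and 93.4 CPM at the 2-cell stage and 2379 and 3286 CPM at the 8-cell stage (log2 fold change 4.92 ± 0.34 (SE), adjusted p = 4.73e-10). *FAU*, whose product is cut into a ubiquitin-like protein and RPS30, had 448 and 409.6 CPM at the 2-cell stage and 2341 and 3493 CPM at the 8-cell stage (2.77 ± 0.49 (SE), adjusted p = 7.44e-05). *RPL38* and *RPS27* had the largest changes among the called members. *RPL38* had 1.696 and 0.738 CPM at the 2-cell stage and 360.2 and 226 CPM at the 8-cell stage (7.90 ± 0.83 (SE), adjusted p = 9.38e-08). *RPS27* had 4.56 and 1.32 CPM at the 2-cell stage and 355 and 242 CPM at the 8-cell stage (6.66 ± 0.75 (SE), adjusted p = 2.44e-07). Both 8-cell pools were above both 2-cell pools for each of these genes. Ribosomal protein genes have many processed copies, so reads may be split between them and single levels are uncertain.

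Other parts of the protein synthesis machinery were also higher more often than lower. Of 71 translation factors, 42 were higher (21 to 43) and 6 lower (0 to 12, the highest being 12 without 8-cell pool B), with a median log2 fold change of 1.68. *EIF6*, which keeps ribosomal subunits apart, had 208 and 213 CPM at the 2-cell stage and 2639 and 2749 CPM at the 8-cell stage (3.68 ± 0.28 (SE), adjusted p = 1.65e-09). *EIF3I*, a subunit of initiation factor eIF3, had 251 and 245 CPM at the 2-cell stage and 735 and 1077 CPM at the 8-cell stage (1.87 ± 0.26 (SE), adjusted p = 5.18e-06). The release factor gene *ETF1* had 1.47 and 9.69 CPM at the 2-cell stage and 236 and 316 CPM at the 8-cell stage (5.63 ± 0.57 (SE), adjusted p = 5.41e-08). Among 130 nucleolar genes of ribosome assembly, 58 were higher (19 to 60) and 15 lower (4 to 27, the highest being 27 without 8-cell pool B), with a median of 0.93. *POLR1C*, a subunit shared by RNA polymerases I and III, had 1.14 and 0.769 CPM at the 2-cell stage and 903 and 998 CPM at the 8-cell stage (9.95 ± 0.82 (SE), adjusted p = 3.80e-09). *EMG1*, an rRNA methyltransferase, had 204 and 170.4 CPM at the 2-cell stage and 1754 and 1491 CPM at the 8-cell stage (3.11 ± 0.31 (SE), adjusted p = 4.63e-08). In the opposite direction, *NAT10*, an RNA acetyltransferase, had 1000.3 and 1059.9 CPM at the 2-cell stage and 144 and 201 CPM at the 8-cell stage (-2.58 ± 0.37 (SE), adjusted p = 5.78e-06).

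Messages for mitochondrial proteins were more often called higher than lower, whether from the mitochondrial or the nuclear genome. All 13 protein genes of the mitochondrial genome were higher (7 to 13), with a median log2 fold change of 3.04, and their summed level was 2611 and 1355 CPM in the 2-cell pools and 14568 and 11070.4 CPM in the 8-cell pools. These mRNAs are translated inside mitochondria by mitochondrial ribosomes. Their rise was not confined to the polysome fractions. The median difference of the members between the stages on the log2(CPM + 1) scale was 4.07 to 4.99 in F1 to F5. It was 2.30 to 3.86 in F8 to F10. *ND5*, a complex I subunit, had 138 and 118 CPM at the 2-cell stage and 859 and 3439 CPM at the 8-cell stage (4.07 ± 0.52 (SE), adjusted p = 1.43e-06). *ND4L* had 4.31 and 3.75 CPM at the 2-cell stage and 63.4 and 63.9 CPM at the 8-cell stage (3.98 ± 0.59 (SE), adjusted p = 9.97e-06). Cytochrome oxidase subunit *COX3* had 630.0 and 329.7 CPM at the 2-cell stage and 4297 and 1442 CPM at the 8-cell stage (2.58 ± 0.60 (SE), adjusted p = 0.00128), and the adjusted p was 0.0656 in the 4 pools alone, 0.0623 in the 12 pools and 0.0502 with the spread per group. *COX1* had 703 and 269 CPM at the 2-cell stage and 2175 and 950.5 CPM at the 8-cell stage (1.68 ± 0.49 (SE), adjusted p = 0.00687). Its adjusted p was 0.109 in the 12 pools, 0.119 in the 4 pools alone and 0.158 with the spread per group. The *COX1* call was also lost without 8-cell pool A and without 2-cell pool B, with log2 fold changes of 0.97 and 1.15. The pools did not overlap, although gradient A had the higher *COX1* and *COX3* levels at both stages.

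Of 83 nuclear genes of oxidative phosphorylation, 53 were higher (29 to 55) and 3 lower (1 to 6), with a median log2 fold change of 1.59. *ATP5F1B*, the beta subunit of ATP synthase, had 231 and 208 CPM at the 2-cell stage and 1059.9 and 2354 CPM at the 8-cell stage (2.96 ± 0.39 (SE), adjusted p = 2.43e-06). *COX6B1*, of cytochrome oxidase, had 59.96 and 43.7 CPM at the 2-cell stage and 1627 and 1336 CPM at the 8-cell stage (4.84 ± 0.56 (SE), adjusted p = 3.19e-07). *UQCR11*, of complex III, had 6.25 and 3.66 CPM at the 2-cell stage and 302 and 151 CPM at the 8-cell stage (5.51 ± 0.70 (SE), adjusted p = 1.38e-06). The 3 lower members were *COX7A1*, *NDUFA8* and *NDUFAB1*, of which the complex I gene *NDUFA8* had 882 and 930.4 CPM at the 2-cell stage and 247 and 178 CPM at the 8-cell stage (-2.09 ± 0.36 (SE), adjusted p = 5.15e-05). Among 79 mitochondrial ribosomal protein genes, 34 were higher (18 to 37) and 5 lower (2 to 6), with a median of 0.82. *MRPL28* had 114 and 84.2 CPM at the 2-cell stage and 1234 and 1339 CPM at the 8-cell stage (3.70 ± 0.40 (SE), adjusted p = 1.46e-07). *MRPL57* had 7.59 and 6.28 CPM at the 2-cell stage and 213 and 151 CPM at the 8-cell stage (4.72 ± 0.55 (SE), adjusted p = 3.74e-07). *MRPL37*, the most abundant member at the 2-cell stage among those named, had 3696 and 3848 CPM at the 2-cell stage and 1535 and 1458 CPM at the 8-cell stage (-1.33 ± 0.25 (SE), adjusted p = 0.000171).

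Genes that make and process mRNA were higher in part. Of 102 spliceosome and SR protein genes, 51 were higher (24 to 52) and 6 lower (1 to 15), with a median log2 fold change of 1.12, and the lower count was 15 without 8-cell pool B and 3 without 8-cell pool A. *SNRPB*, a core Sm protein, had 102 and 83.1 CPM at the 2-cell stage and 1943 and 2321 CPM at the 8-cell stage (4.52 ± 0.32 (SE), adjusted p = 7.99e-10). *SF3B5*, of the U2 particle, had 169 and 141 CPM at the 2-cell stage and 2248 and 2067 CPM at the 8-cell stage (3.80 ± 0.42 (SE), adjusted p = 1.91e-07). *PHF5A*, of the same particle, had 1.75 and 1.32 CPM at the 2-cell stage and 104 and 133 CPM at the 8-cell stage (6.26 ± 0.58 (SE), adjusted p = 1.78e-08). The splicing regulator *TRA2B* had 0.195 and 0.861 CPM at the 2-cell stage and 23.6 and 58.4 CPM at the 8-cell stage (6.28 ± 0.66 (SE), adjusted p = 1.02e-07). No pool of one stage reached the level of the other in these 4 genes. Of 88 genes of RNA polymerase II and its general factors, 26 were higher (12 to 32) and 8 lower (2 to 17, the highest being 17 without 8-cell pool B), with a median of 0.50. *POLR2G*, a polymerase subunit, had 381 and 359.6 CPM at the 2-cell stage and 1539.9 and 1536 CPM at the 8-cell stage (2.05 ± 0.35 (SE), adjusted p = 5.75e-05). *TAF11*, of the TFIID complex, had 1.14 and 2.43 CPM at the 2-cell stage and 80.5 and 101 CPM at the 8-cell stage (5.66 ± 0.56 (SE), adjusted p = 4.02e-08). *LEO1*, of the PAF1 elongation complex, had 496 and 655 CPM at the 2-cell stage and 41.96 and 38.9 CPM at the 8-cell stage (-3.83 ± 0.49 (SE), adjusted p = 1.35e-06).

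The proteasome and carbon metabolism were represented more strongly in 8-cell polysomes. Of 50 proteasome subunits, 27 were higher (18 to 28) and 6 lower (1 to 11, the highest being 11 without 8-cell pool B), with a median log2 fold change of 1.34. *PSMB5*, which carries the chymotrypsin-like activity, had 514 and 452 CPM at the 2-cell stage and 2629 and 2624 CPM at the 8-cell stage (2.44 ± 0.24 (SE), adjusted p = 4.32e-08). The alpha-ring genes *PSMA1* and *PSMA2* were near 0 at the 2-cell stage. *PSMA1* had 0.639 and 0.154 CPM at the 2-cell stage and 157 and 129.6 CPM at the 8-cell stage (8.45 ± 0.64 (SE), adjusted p = 1.65e-09). *PSMA2* had 0.0834 and 0.154 CPM at the 2-cell stage and 79.5 and 130.3 CPM at the 8-cell stage (9.72 ± 0.78 (SE), adjusted p = 2.39e-09). *PSMD11*, of the regulatory lid, had 262 and 266 CPM at the 2-cell stage and 50.4 and 70.6 CPM at the 8-cell stage (-2.13 ± 0.36 (SE), adjusted p = 5.73e-05). Of 49 glycolysis, pentose phosphate and citrate cycle genes, 24 were higher (13 to 25) and 10 lower (3 to 11), with a median of 1.17. *SLC2A3*, a glucose transporter, had 20.5 and 11.7 CPM at the 2-cell stage and 1578 and 1653 CPM at the 8-cell stage (6.65 ± 0.63 (SE), adjusted p = 2.40e-08). Transketolase (*TKT*) of the pentose phosphate pathway had 25.7 and 22.6 CPM at the 2-cell stage and 1845 and 1682 CPM at the 8-cell stage (6.19 ± 0.38 (SE), adjusted p = 7.39e-11). *PGD*, an earlier enzyme of that pathway, had 1335 and 1481 CPM at the 2-cell stage and 462 and 337 CPM at the 8-cell stage (-1.82 ± 0.28 (SE), adjusted p = 1.54e-05).

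Interferon-stimulated genes, whose products restrict viruses, were called higher in 45.9%, beside 21.0% of all genes. They were called lower in 21.6%, which is near the 25.2% of all genes. Of 37, 17 were higher (6 to 18) and 8 lower (0 to 11), and the higher count was 8 without 8-cell pool B. The median fitted log2 fold change was 1.07. It is not read as a measured fold, since 16 of the 37 had a stage with 0 counts in both pools. The summed level of the 37 genes was 500.3 and 484 CPM in the 2-cell pools and 5139 and 4871 CPM in the 8-cell pools. *IFI27*, *IFITM3*, *IFITM1* and *ISG15* together held 4236 and 3966 CPM of the 8-cell sums, and the other 33 genes summed to 461 and 456 CPM in the 2-cell pools and 904 and 905 CPM in the 8-cell pools. *IFI27*, a mitochondrial protein gene induced by interferon, had 19.99 and 12.1 CPM at the 2-cell stage and 1901 and 1643 CPM at the 8-cell stage (6.79 ± 1.75 (SE), adjusted p = 0.00298). *IFITM3* and *IFITM1* encode membrane proteins that block virus entry. *IFITM3* had 8.200 and 5.45 CPM at the 2-cell stage and 1211 and 1242 CPM at the 8-cell stage (7.49 ± 0.63 (SE), adjusted p = 4.91e-09). *IFITM1* had 9.48 and 9.63 CPM at the 2-cell stage and 664 and 727 CPM at the 8-cell stage (6.19 ± 0.68 (SE), adjusted p = 1.75e-07). The ubiquitin-like modifier *ISG15* had 1.45 and 0.861 CPM at the 2-cell stage and 459 and 354 CPM at the 8-cell stage (8.45 ± 1.34 (SE), adjusted p = 3.17e-05). The GTPase gene *MX1* had 0 and 0.0308 CPM at the 2-cell stage and 40.8 and 37.8 CPM at the 8-cell stage, a ratio of 2669 (95% counting interval 479 to 105421). *OAS1Y*, of the oligoadenylate synthetases that sense double-stranded RNA, had 0 counts at the 2-cell stage and 61.6 and 53.7 CPM at the 8-cell stage (at least 1298-fold higher, with an adjusted p of 0.0538 in the 12 pools alone). The *IFITM* and *OAS1* genes have close copies, so their levels are uncertain. In contrast, 9 members had 0 counts in both 8-cell pools, namely *CMPK2*, *IFIH1*, *IFIT3*, *MX2*, *OAS1X*, *OAS1Z*, *OASL*, *PARP9* and *RSAD2*, and 5 of the 37 had 0 counts in all 4 pools. These 5 passed the filter on low counts only through other libraries, the 8-cell transcriptomes among them, in which 27 members were higher and 1 lower.

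The list of 22 genes that the study's text names at these stages was drawn from these libraries, so its direction is not independent evidence. It had 12 members higher (9 to 12) and 5 lower (3 to 7), with a median log2 fold change of 2.98. *TUT7*, a terminal uridyltransferase that marks mRNA for decay, had 3.14 and 7.72 CPM at the 2-cell stage and 133 and 183 CPM at the 8-cell stage (4.86 ± 0.68 (SE), adjusted p = 4.34e-06). *RAB17*, a small GTPase, had 0 counts at the 2-cell stage and 23.9 and 41.3 CPM at the 8-cell stage (at least 785-fold higher). *UHRF1*, a partner of the maintenance DNA methyltransferase, had 1138 and 1389 CPM at the 2-cell stage and 264 and 229.9 CPM at the 8-cell stage (-2.36 ± 0.44 (SE), adjusted p = 0.000161). The histone methyltransferase gene *SUV39H1* had 471 and 461 CPM at the 2-cell stage and 118 and 53.8 CPM at the 8-cell stage (-2.44 ± 0.47 (SE), adjusted p = 0.000204). The pools of the stages did not overlap for any of these 4 genes.

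Markers of other cell types were measured in the same pools, and their part in the results was not tested. Of 24 fibroblast and mesenchymal markers, 15 were higher (6 to 16) and 1 lower (0 to 4), with a median log2 fold change of 5.02, and their summed level was 141 and 82.5 CPM in the 2-cell pools and 1841 and 2854 CPM in the 8-cell pools. *COL6A2*, *MMP2* and *PDGFRB* had 0 counts in both 8-cell pools. *SPARC*, a matrix glycoprotein, had 6.17 and 0.615 CPM at the 2-cell stage and 965 and 1038 CPM at the 8-cell stage (8.20 ± 1.08 (SE), adjusted p = 2.07e-06). *SERPINH1*, a collagen chaperone, had 1.95 and 0.123 CPM at the 2-cell stage and 233 and 699.6 CPM at the 8-cell stage (8.80 ± 1.40 (SE), adjusted p = 3.17e-05). The proteoglycan gene *LUM* had 0 and 2.06 CPM at the 2-cell stage and 134 and 229 CPM at the 8-cell stage (7.47 ± 2.06 (SE), adjusted p = 0.00535, and 0.124 in the 12 pools alone, 0.0754 in the 4 pools and 0.0528 without 2-cell pool A). Of 22 granulosa and cumulus cell markers, 9 were higher (3 to 9, 4 without 8-cell pool B) and 3 lower (1 to 6), and their summed level was 922 and 1254 CPM in the 2-cell pools and 892 and 1029 CPM in the 8-cell pools. *STAR*, the steroidogenic cholesterol carrier, had 691 and 1026 CPM at the 2-cell stage and 47.6 and 42.6 CPM at the 8-cell stage (-4.25 ± 0.38 (SE), adjusted p = 1.16e-08). The oxytocin gene *OXT* had 14.8 and 13.7 CPM at the 2-cell stage and 639 and 558 CPM at the 8-cell stage (5.39 ± 0.89 (SE), adjusted p = 3.81e-05). Of 13 blood and immune cell markers, 3 were higher (1 to 4) and 2 lower (0 to 4). These are 23.1% and 15.4%, beside 21.0% and 25.2% of all genes. The summed level of the 13 markers was 141 and 111 and then 303 and 465 CPM. Among them 7 members, *CD14*, *CD3E*, *CD74*, *CORO1A*, *FCER1G*, *LAPTM5* and *TYROBP*, had 0 counts in both 8-cell pools. The globin gene *HBA* had 20.4 and 16.7 CPM at the 2-cell stage and 284 and 408 CPM at the 8-cell stage (4.22 ± 0.54 (SE), adjusted p = 1.42e-06). Of 5 sperm markers, 1 was higher (0 to 1) and 0 lower (0 to 1), at summed levels of 25.5 and 6.89 and 12.8 and 25.7 CPM. Of 14 trophectoderm genes, 4 were higher (2 to 4) and 2 lower (0 to 2), at summed levels of 584 and 780.4 and 764 and 887 CPM. *TFAP2C*, an AP-2 transcription factor, had 0 and 0.861 CPM at the 2-cell stage and 137 and 339 CPM at the 8-cell stage (9.11 ± 1.04 (SE), adjusted p = 3.58e-07). *TEAD4*, which acts with YAP in the Hippo pathway, had 0 and 0.277 CPM at the 2-cell stage and 211 and 195 CPM at the 8-cell stage (10.49 ± 1.39 (SE), adjusted p = 5.60e-06). *HAND1*, *IFNT*, *IFNT3* and *PAG2* had 0 counts in both 8-cell pools.

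To see whether the polysome change followed the level in the whole embryo, the same model was used to compare the 8-cell with the 2-cell transcriptomes, which are separate libraries. In the transcriptomes 3887 genes (26.6%) were higher and 3427 (23.5%) lower. Without 8-cell transcriptome A, in which the fibroblast markers were high, 3460 were higher and 3005 lower. Across the 14612 genes, which are not independent replicates and were scaled together, Pearson's r between both log2 fold changes was 0.633 and Spearman's rho was 0.659. Of the 3074 genes higher in polysomes, 2367 (77.0%) were also higher in the transcriptomes and 12 were lower. Of the 3685 genes lower in polysomes, 1984 (53.8%) were also lower in the transcriptomes, 1577 (42.8%) had no transcriptome call and 124 were higher. There were 567 genes with 0 counts in all 4 pools, which passed the filter on low counts only through other libraries.

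**Figure D3:**
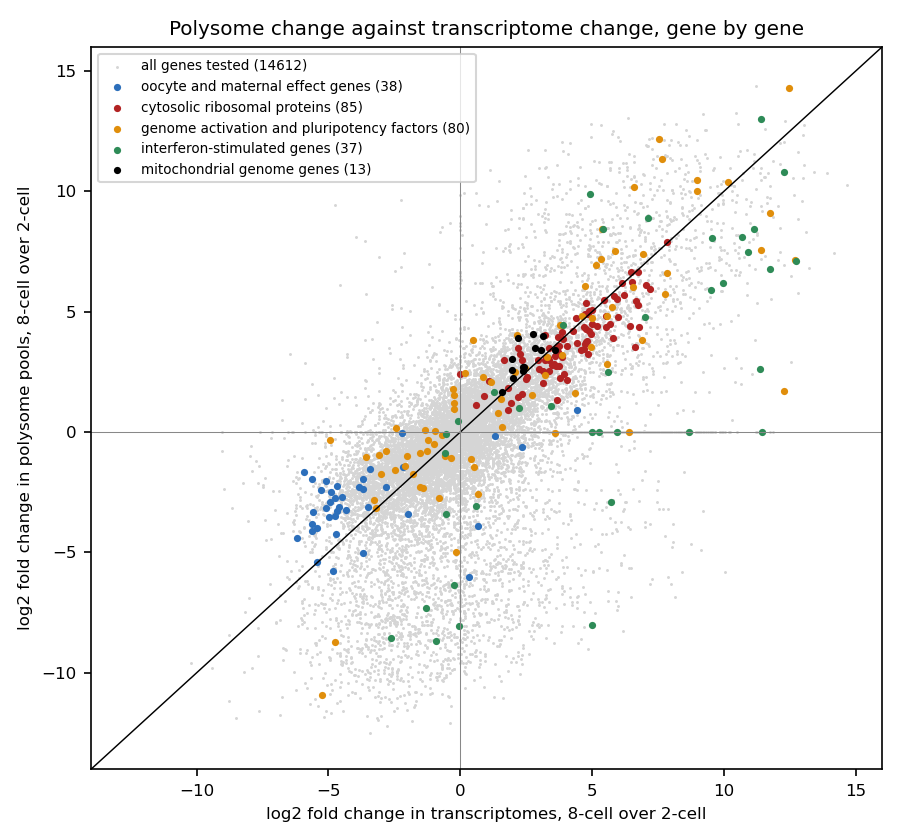
Log2 fold change (8-cell minus 2-cell) in polysome pools (vertical axis) against that in transcriptomes (horizontal axis). Grey points are all 14612 genes, and colours mark members of gene groups, not calls. The coloured groups are oocyte and maternal effect, cytosolic ribosomal protein, genome activation and pluripotency, interferon-stimulated and mitochondrial genome genes. The horizontal line of points at a polysome change of 0 is the 567 genes with no count in any of the 4 pools. Points far from 0 on the vertical axis include genes with no count at 1 stage, whose fitted change is no measured fold.

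The groups differed in how the polysome change compared with the transcriptome change. The median of the polysome minus the transcriptome log2 fold change was -0.23 over all genes, 1.48 over the oocyte and maternal effect genes, -0.44 over the cytosolic ribosomal protein genes and -0.74 over the nuclear oxidative phosphorylation genes. Among the 29 oocyte and maternal effect genes called lower in both kinds of library, the decrease was smaller in polysomes than in transcriptomes for 26, beside 903 of 1984 over all genes. *ZP3* had 278 ± 45.8 CPM (SD, n = 3) in the 2-cell and 8.72 ± 1.65 CPM in the 8-cell transcriptomes. Among the 50 oxidative phosphorylation genes called higher in both, the increase was smaller in polysomes for 44, and among 79 ribosomal protein genes it was smaller for 58, beside 1143 of 2367 over all genes. The median difference was -1.07 over glycolysis and citrate cycle enzymes and 0.37 over the mitochondrial genome. The summed level of the glycolysis and citrate cycle enzymes was 22350 CPM in 8-cell transcriptome A, against 10269 and 11890 CPM in B and C. How far A weighs on their median was not tested. No median is read for the interferon-stimulated genes, of which 16 had a stage with 0 counts in both pools. Most of these differences were not called for single genes.

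For single genes, the difference between the polysome and the transcriptome change was tested as an interaction in the model of 30 libraries. It was called for 503 genes (3.44%) with a higher and 1272 genes (8.71%) with a lower polysome change. The oocyte and maternal effect genes had 6 of 38 called with a higher polysome change (1 to 11 over the alternatives) and 2 with a lower one, and none of the 7 defining genes, *ZP3* among them, was called. A lower polysome change was called for 8 of 83 oxidative phosphorylation genes (0 to 25) and 7 of 85 ribosomal protein genes (0 to 17). The shares of these 2 groups are near the 8.71% of all genes, so the calls do not set either group apart. The interaction calls rested on a shared spread: with the spread estimated per group, limma-voom called 23 and 7, and 15 and 7 genes were called the same way by both fits. Single pools also moved the counts, to 1100 and 3454 without 8-cell pool B, and to 296 and 275 higher without 2-cell pools A and B. Without 8-cell transcriptome A they were 361 and 925. The genes of this paragraph and the next were named after their values were seen, from those 15 and 7, except *IFITM3*, which was not among them. *LARS1*, the cytosolic leucyl-tRNA synthetase, had 4.25 and 4.12 CPM at the 2-cell stage and 70.9 and 44.9 CPM at the 8-cell stage in polysomes and 117 ± 22.8 and then 124 ± 16.7 CPM (SD, n = 3) in the transcriptomes, a difference of log2 fold changes of 3.71 ± 0.41 (SE), adjusted p = 3.54e-06 (0.0364 with the spread per group). Its message rose in polysomes at a transcriptome level whose means differed by less than the SD of the 8-cell replicates. *PRR5*, which encodes a subunit of mTOR complex 2, had 27.2 and 36.2 CPM at the 2-cell stage and 1231 and 868 CPM at the 8-cell stage in polysomes and 2.59 ± 0.391 and 9.103 ± 1.07 CPM in the transcriptomes, a difference of 3.24 ± 0.53 (SE), adjusted p = 0.000348 (0.0312 with the spread per group). *AURKC*, an Aurora kinase of germ cells and early embryos, had 518 and 586 CPM at the 2-cell stage and 1542 and 794 CPM at the 8-cell stage in polysomes, whereas its transcriptome level went from 713 ± 84.7 to 184 ± 36.8 CPM, a difference of 3.03 ± 0.54 (SE), adjusted p = 0.000802 (0.0312 with the spread per group). *KPNA7*, an oocyte importin, had 2561 and 2412 CPM at the 2-cell stage and 656 and 651 CPM at the 8-cell stage in polysomes and 2004 ± 122 and 40.6 ± 23.1 CPM in the transcriptomes, a difference of 3.70 ± 0.95 (SE), adjusted p = 0.0128 (0.0364 with the spread per group, and 0.0551 without 2-cell pool A and 0.0614 without 2-cell pool B).

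In the other direction, *BUD23*, an 18S rRNA methyltransferase, had 1607 and 1405 CPM at the 2-cell stage and 1349 and 1773 CPM at the 8-cell stage in polysomes, with overlapping pools, and 366 ± 32.5 and 1984 ± 481 CPM in the transcriptomes, a difference of -2.39 ± 0.35 (SE), adjusted p = 0.000125 (0.0364 with the spread per group). *WDR55*, a nucleolar protein gene, had 43.1 and 59.7 CPM at the 2-cell stage and 24.6 and 28.7 CPM at the 8-cell stage in polysomes and 4.84 ± 0.592 and 72.1 ± 2.57 CPM in the transcriptomes, a difference of -4.84 ± 0.50 (SE), adjusted p = 1.60e-06 (0.00313 with the spread per group). The kinase *ARAF* rose in both, from 74.2 and 80.8 to 562 and 816 CPM in polysomes and from 3.27 ± 1.22 to 622 ± 273 CPM in the transcriptomes, a difference of -4.42 ± 0.54 (SE), adjusted p = 1.62e-05 (0.00836 with the spread per group). *ZFP36L2*, which binds AU-rich elements and promotes mRNA decay, had 106 and 139 CPM at the 2-cell stage and 94.7 and 77.02 CPM at the 8-cell stage in polysomes and 4.02 ± 1.11 and 23.8 ± 4.499 CPM in the transcriptomes, a difference of -3.08 ± 0.53 (SE), adjusted p = 0.000639 (0.0404 with the spread per group). Among the interferon-stimulated genes, *IFITM3* had 0.304 ± 0.197 and 599 ± 257 CPM in the transcriptomes, a difference of -3.41 ± 0.72 (SE), adjusted p = 0.00352, which was 0.176 with the spread per group.

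The 8-cell increase was then followed through the gradient. The summed level of the 85 ribosomal protein genes was 4739.7 to 7192 CPM in the monosome fractions F3 to F5 and 6655 to 8543 CPM in F8 to F10 of the 2-cell gradients. In the 8-cell gradients it was 14282 to 24259 CPM in F3 to F5 and 55947 to 74387 CPM in F8 to F10, with no overlap between these ranges. Near the top of the 8-cell gradients it was 40419 to 40425 CPM in F1 and 42602 to 61039 CPM in F2, and F2 of gradient A lay within the range of F8 to F10. The 37 interferon-stimulated genes summed to 719.7 to 2416 CPM in F1 to F5 and 4094 to 7132 CPM in F7 to F10 of the 8-cell gradients, and to 181 to 663 CPM over all fractions of the 2-cell gradients. The 4 genes that carried the pool sums held 3212 to 6026 CPM in F7 to F10, and the median difference of the members between the stages was 0 on the log2(CPM + 1) scale in each of F3 to F10. *NLRP8* alone held 68214 to 79125 CPM in F4 and F5 of the 8-cell gradients and 3999 to 4012 CPM in F10, against 11111 to 22152 and 6805 to 9299 CPM in the same fractions of the 2-cell gradients. The other 37 oocyte and maternal effect genes summed to 19268 to 25632 CPM in F4 and F5 and 3842 to 6696 CPM in F10 of the 8-cell gradients, and to 34047 to 55525 CPM over all fractions of the 2-cell gradients. The mitochondrial genome summed to 18186 to 42399.5 CPM in F1, 3044 to 11196 CPM in F4 to F7 and 17569 to 27643 CPM in F10 at the 8-cell stage. At the 2-cell stage it summed to 1437 to 3078 CPM in F1, 230 to 791 CPM in F4 to F7 and 2754 to 6103 CPM in F10. Each fraction is scaled to its own total, so these are shares within a fraction.

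**Figure D4:**
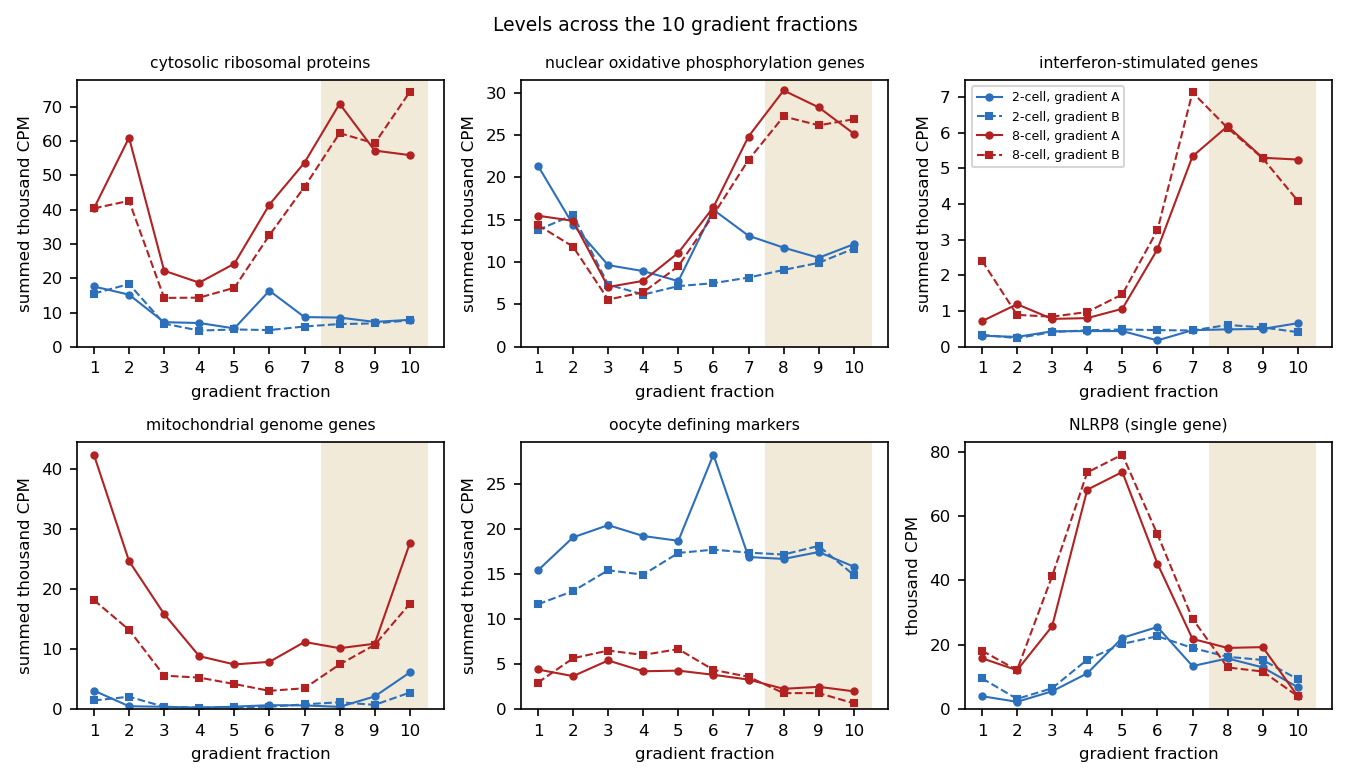
Summed CPM of gene groups and CPM of single genes across fractions F1 (top of the gradient) to F10 (bottom). Each line is 1 gradient (A or B) of 1 stage; ribosomal protein genes reach 55947 to 74387 CPM in F8 to F10 of the 8-cell gradients and 6655 to 8543 CPM in the 2-cell gradients.

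Whether genes shifted from monosomes to polysomes was tested within gradients, by comparing F8 to F10 with F3 to F5 in 24 pools of 12 gradients with the gradient as a block. Of 14873 genes, 15 (0.101%) had a higher and 14 (0.0941%) a lower ratio of polysomes to monosomes at the 8-cell stage than at the 2-cell stage. None of 13839 genes was called in the 8 pools of these 2 stages alone by edgeR's quasi-likelihood test, in which 2894 had an unadjusted p under 0.05. No gene was called without 8-cell pools A, 2-cell pools A or 2-cell pools B either (2771, 1432 and 1596 at an unadjusted p under 0.05), and 294 and 668 were called without 8-cell pools B. The 6 genes named here carry that limit. *PSMA1* had 143 and 115 CPM in polysomes and 15.9 and 23.5 CPM in monosomes at the 8-cell stage, and 0.557 and 0.132 against 1.501 and 1.1 CPM at the 2-cell stage (difference of log2 ratios 4.86 ± 0.79 (SE), adjusted p = 0.0471). *PAK1IP1*, a nucleolar inhibitor of the PAK1 kinase, had 93.7 and 99.2 against 12.4 and 9.85 CPM and, at the 2-cell stage, 12.8 and 7.81 against 36.5 and 25.6 CPM (4.74 ± 0.68 (SE), adjusted p = 0.0464). *TMED2*, a cargo receptor of early secretory vesicles, had 353 and 81.6 against 18 and 6.28 CPM and 2.69 and 4.56 against 3.56 and 3.15 CPM (3.93 ± 0.61 (SE), adjusted p = 0.0464). In these 3 genes every 8-cell polysome pool exceeded the monosome pool of its gradient. *KLHL32* had 0.0747 and 0.193 CPM in polysomes and 44.9 and 57.04 CPM in monosomes at the 8-cell stage, and 66.5 and 67.1 against 153 and 134 CPM at the 2-cell stage (-7.49 ± 1.01 (SE), adjusted p = 0.0464). *DTX1* had 0 and 0.145 against 3.65 and 18.5 CPM and 58.4 and 54.2 against 43.7 and 40.2 CPM (-7.85 ± 1.12 (SE), adjusted p = 0.0464). The orphan receptor gene *GPR179* had 0.0747 and 0.362 against 26.7 and 35.2 CPM and 42.5 and 71.5 against 21.2 and 34.9 CPM (-8.36 ± 1.05 (SE), adjusted p = 0.0464). The last 3 genes were therefore still counted in 8-cell monosome fractions while their 8-cell polysome pools held at most 0.362 CPM.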

How the data were processed

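RNA of sucrose gradient fractions (10 per gradient, 12 gradients) and of 18 whole oocyte or embryo pools was made into libraries with the Smart-seq V4 and Nextera XT kits. The authors quantified reads per gene with Salmon and deposited 1 table of expected counts, not normalized, for 16706 gene symbols. Of the values, 11.7% are not whole, and they were rounded. The labels name the genome build UMD3.1 and the methods another bovine build, so no coordinates are given. All columns were matched to samples by name, with 0 left unmapped. Pools held 22540500 to 34653312 counts.

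F8, F9 and F10 (polysomes) and F3 to F5 (monosomes) were summed within gradients. Tests were edgeR 4.0.16 quasi-likelihood F tests (R 4.3.3) after TMM scaling and filterByExpr, two-sided, with Benjamini-Hochberg adjustment, on 30 libraries (18 residual degrees of freedom) and, within gradients, on 24 pools (6). Calls needed an adjusted p under 0.05 and a fold above 2. The replicate letter was not a block in the 30-library model. CPM carry TMM factors. Alternatives used DESeq2 1.42.0 and limma 3.58.1, other scaling, filters, pooling, models, thinning and leaving out replicates. The tests were tested on simulated data.

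Gene lists, written by hand, covered the groups described in the report and the closing section and markers of other cell types. Their members and the comparison were chosen with earlier results of these data known. Named genes were the 10 with the largest called change in each direction (mean of at least 50 CPM in the higher pools, pools not overlapping), in each list the 3 most abundant and the 2 with the largest called change in each direction, the 5 with the largest interaction in each direction, the genes the study's text names, and the 5 most abundant per stage. The text uses some of these, and says where a gene was named otherwise. Summary tables were made with Python 3.11.15 and pandas 2.3.3. Results for some genes are not reported here.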

Additional observations from a re-analysis of the deposited data

Results flagged for a closer look

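A pair of gene sets was called in opposite directions in the polysomes and the transcriptomes between the 2-cell and 8-cell stages. Every gene of both sets passed the interaction test of the 30-library model. That test takes the difference between the polysome and transcriptome changes of the same model. Passing it therefore followed largely from how the genes were chosen and adds no separate evidence. In 124 genes the polysome level was lower and the transcriptome level higher at the 8-cell stage. Of these, 61 had 0 counts in both 8-cell pools, 103 were under 10 CPM in the pools of both stages, 23 were also called lower in the 12 polysome pools alone, and 0 passed the interaction test with the spread estimated per group (limma-voom). In some, 8-cell transcriptome A, which stood apart in fibroblast markers, led the rise. *SRPX2* had 59.0, 8.87 and 9.92 CPM in A, B and C, and *LMCD1* 66.6, 9.68 and 11.6 CPM. In others, such as *HSD17B7* (40.3, 41.0 and 25.8 CPM), it did not. How many were led by A was not counted. In 12 genes, among them *AURKC*, *SAE1*, *TGIF1*, *MKI67* and *RAD54L2*, the polysome level was higher and the transcriptome level lower. None of the 12 was called in the 12 pools alone (edgeR), and 3 passed the interaction test with the spread per group.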

How the results depend on the processing

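In the polysome comparison, 92 of the 111 genes whose change is given kept their direction and call in all 18 other fits, 19 lost the call in at least 1 of them, and none reversed. The numbers of genes called higher and lower stayed within 1.5 times except in the fits of the 4 pools alone (1091 and 586), of the 12 polysome pools alone (1358 and 996) and of limma-voom with the spread estimated per group (1707 and 1168, a fit chosen after seeing the data). These fits use fewer libraries or another spread, and which of the 2 matters was not tested. Leaving out 1 pool gave 2384 to 3136 genes higher and 3007, 2977, 3370 or 4755 lower, the last without 8-cell pool B. The transcriptome counts stayed within 1.5 times in every alternative run. For the polysome minus transcriptome change, the genes called higher were 812 with the likelihood ratio test, 782 with DESeq2, 326 in the 10 libraries of both stages and 23 with the spread per group, and leaving out 1 library gave 275 to 1100. Those called lower were 791 in the 10 libraries and 7 with the spread per group, and leaving out 1 library gave 884 to 3454. Of the 9 genes named for this difference, 7 kept their call in all 22 alternatives. All but *IFITM3* were chosen among genes that the limma-voom fit, 1 of the 22, also called. Keeping the call in that fit was therefore fixed by the choice, and it says nothing about the other interaction calls. The polysome to monosome calls, 15 and 14, were the least stable: 0 and 0 in the 8 pools (2894 genes at an unadjusted p under 0.05), 99 and 61 with library totals, 104 and 110 with F3 to F7 as monosomes, 134 and 102 with no gradient block, which in this test is the replicate block, and 0 to 294 and 0 to 668 when 1 gradient was left out, and 0 of its 6 named genes kept the call in all 9. The cause of these shifts was not tested.

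With the letter as a replicate block, the polysome counts were 2896 and 3496 and the interaction counts 422 and 1067. In the pools, the deviations of A from B at the 2-cell and 8-cell stages had r = 0.0215 over 14612 genes. In the transcriptomes, the deviations of each letter from the mean of its stage had r = 0.0043 to 0.0357 between the stages. Values this near 0 do not show whether the letters pair the libraries. Depth limits statements on genes near 0, where fitted changes depend on few counts.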

Other observations

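Lysosomal, chaperone and chromatin genes were called in both directions in the polysomes. The shares called higher and lower were 28.4% and 14.9% of lysosomal, 22.1% and 18.6% of chaperone and 27.5% and 15.4% of chromatin modifier genes, beside 21.0% and 25.2% of all genes. Of 74 lysosomal genes, 21 were higher (10 to 24 over the 18 other fits) and 11 lower (0 to 23, the highest being 23 without 8-cell pool B), with a median log2 fold change of 0.22. *ATP6V0B*, a subunit of the proton pump, had 309.7 and 232 CPM at the 2-cell stage and 754 and 1102 CPM at the 8-cell stage (1.78 ± 0.38 (SE), adjusted p = 0.000671). Of 86 chaperones, 19 were higher (11 to 22) and 16 lower (1 to 27, with 27 without 8-cell pool B and 9 without 2-cell pool B), with a median of 0.11. *HSPA8*, the constitutive Hsp70, had 247 and 232 CPM at the 2-cell stage and 669 and 1369 CPM at the 8-cell stage (2.09 ± 0.36 (SE), adjusted p = 6.73e-05). *CCT6A*, of the TRiC chaperonin, had 0.139 and 0.0615 CPM at the 2-cell stage and 108 and 141 CPM at the 8-cell stage (10.16 ± 1.57 (SE), adjusted p = 1.67e-05). *DNAJB9*, a co-chaperone of the endoplasmic reticulum, had 0 counts at the 2-cell stage and 74.1 and 25.3 CPM at the 8-cell stage (at least 1020.5-fold higher). Of 91 chromatin modifier genes, 25 were higher (8 to 29) and 14 lower (6 to 24, the highest being 24 without 8-cell pool B), with a median of 0.31. *TET1*, which oxidizes methylated cytosine, had 0.278 and 0 CPM at the 2-cell stage and 54.96 and 63.1 CPM at the 8-cell stage (8.62 ± 0.82 (SE), adjusted p = 3.85e-08, and 0.0504 in the 4 pools alone). Each of these 5 genes was higher in both 8-cell pools than in both 2-cell pools.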
